A study of Mus musculus with 6 samples.

Results

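The 39 genes described here encode the machinery that brings new proteins into the endoplasmic reticulum (ER), removes their signal peptides and attaches N-linked glycans. They are listed by gene name and role, in a list drawn up with earlier results of these data known, and all 39 are among the 23337 genes of the count table. By role they fall into 6 genes of the signal recognition particle and its receptor, 5 of the Sec61 channel and proteins bound to it, 4 of the translocon-associated protein complex, 5 of signal peptidase, 7 of oligosaccharyltransferase, 9 of oligosaccharide assembly on the lipid carrier, and 3 that trim or re-glucosylate the glycan after transfer.

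RNA was sequenced from cardiomyocytes, the contractile cells of the heart, of wild-type mice injected with an adeno-associated virus (AAV) on postnatal day 1. The virus carried GFP as control (AAV-GFP), XBP1S (AAV-XBP1S) or ATF6N (AAV-ATF6N), and the cells were isolated by Langendorff perfusion at 4 weeks and sorted by flow cytometry. XBP1S stands for XBP1 translated from its spliced mRNA, which is the active protein, and ATF6N for the cytosolic fragment that is cut from ATF6 and enters the nucleus. There were 3 groups of 2 libraries, so all 6 libraries come from mice that received a virus. The sample labels write XBP1 and ATF6, and the design text gives the forms. The promoter that drives each transgene, the viral dose and the number of mice per library are not stated in the labels. Nor do the labels say that the libraries of a group came from separate mice, so p-values measure the spread between these libraries, which may be technical.

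Secretory and membrane proteins are recognised by the signal recognition particle as they leave the ribosome and are threaded through the Sec61 channel. Signal peptidase then cleaves the signal, and oligosaccharyltransferase moves a glycan, built step by step on the lipid dolichol by the ALG enzymes, onto asparagine. Trimming by glucosidases lets the lectin chaperones calnexin and calreticulin bind, and UGGT1 returns a glucose to proteins that are not yet folded. Many of these genes are known targets of the unfolded protein response in other cell types, where XBP1s is tied to translocation and glycosylation genes and ATF6 to chaperones.

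The libraries held 67702482 to 112049342 counts each, and levels are given as CPM, counts scaled to the TMM-adjusted library total. All 39 genes passed the filter on low counts, as did 14587 genes in all. The counts do not separate a delivered factor from the endogenous gene. Xbp1 was 98 and 115.3 CPM in AAV-GFP, 160.4 and 166 in AAV-XBP1S, and Atf6 was 44.9 and 70.6 CPM in AAV-GFP, 161.9 and 157.7 in AAV-ATF6N. Both pairs lay above AAV-GFP, but neither difference passed edgeR's test, with log2 fold changes of 0.61 (SE 0.19, edgeR adjusted p 0.307) for Xbp1 and 1.47 (SE 0.29, edgeR adjusted p 0.126) for Atf6. Atf6 passed with DESeq2 (adjusted p 0.000568), and in edgeR with the gene-length offset described below (adjusted p 0.0419) or the replicate number as a block (adjusted p 0.0203). Both genes were also above AAV-GFP under the other factor. Xbp1 reached 144.8 and 151.5 CPM with AAV-ATF6N, and Atf6 reached 77.04 and 111 CPM with AAV-XBP1S. Between the factors the log2 fold change was -0.14 (edgeR adjusted p 0.802) for Xbp1 and 0.76 (edgeR adjusted p 0.328) for Atf6. Each gene was highest with its own factor, but neither difference between the factors passed edgeR's test. The 8 cardiomyocyte markers summed to between 82040 and 115200 CPM in every library. The other 6 marker lists had lower sums, of at most 1245 CPM. Endothelial markers were highest in AAV-XBP1S, at 893 and 1245 CPM, against 543 and 800 in AAV-GFP and 534 and 489 in AAV-ATF6N. Fibroblast markers summed to 782 and 917 CPM with AAV-XBP1S and 798 and 763 with AAV-ATF6N, above 451 and 576 in AAV-GFP. Not all 7 were higher in AAV-ATF6N than in AAV-GFP. Col3a1 was 430 and 403 CPM with AAV-ATF6N, against 158 and 289. The long collagen genes Col1a1, Col1a2 and Col3a1 had log2 fold changes of 1.28, 0.63 and 0.9. With the gene-length offset described below these were 1.03, 0.3 and 0.6. Lum had 0.35 (SE 0.22) and Pdgfra 0.43 (SE 0.58), but Dcn had -0.06 (SE 0.22) and Tcf21 -0.73 (SE 0.39). Schwann and epicardial markers stood at 39.4 and 33 CPM in AAV-XBP1S, above 7.46 and 6.55 in AAV-GFP. The 4 erythroid markers summed to 277 and 130 CPM with AAV-GFP, 106 and 69.7 with AAV-XBP1S, and 41.8 and 40.7 with AAV-ATF6N. Of these Hba-a1 was at 0 in every library, and Alas2, which starts haem synthesis, fell in AAV-ATF6N (log2 fold change -1.75, SE 0.25, edgeR adjusted p 0.047). The part of these cells in the results was not tested, and in bulk samples fewer cells of a type and less RNA per cell cannot be told apart.

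The libraries differ in ways that touch the results. The AAV-GFP libraries differ from each other: the spread of log2 ratios between them (scaled median absolute deviation) was 0.94 over the 39 genes, against 0.38 in AAV-XBP1S and 0.10 in AAV-ATF6N. The close AAV-ATF6N pair still differed by more than sampling noise (median chi-square per gene 4.67, where sampling alone gives 0.455), so it was counted as 2 libraries. Counts also followed gene length. In AAV-GFP replicate 1, genes of up to 1000 bases lay at a median of 0.76 on the log2 scale above their mean over the 6 libraries, and genes of over 4000 bases at -0.35. The same library had the most reads of Rn45s, the ribosomal RNA precursor, at 0.337% of its counts against 0.0319% to 0.13% in the others. The groups differ as well in transcripts that mark sex. Y-linked genes had 2 and 0 counts with AAV-XBP1S and 15061 and 11415 with AAV-ATF6N, against 3114 and 3068 in AAV-GFP. Xist, the female marker, had 4014 and 1650 counts with AAV-XBP1S and 16 and 6 with AAV-ATF6N, against 2424 and 562 in AAV-GFP. Both AAV-GFP libraries thus held transcripts of both sexes. The sex of the mice and the treatment cannot be told apart.

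Among the 39 genes the level per kilobase of gene length spanned a wide range in AAV-GFP. Highest was Srp14, an Alu-domain subunit of the signal recognition particle, at 161.0 CPM per kb. The small subunits Srp19 (105.3), Ssr4 (105.2), Spcs1 (90.9) and Ssr2 (85.2 CPM per kb) followed. That order rests on AAV-GFP replicate 1, since in replicate 2 alone Ddost, at 78.2 CPM per kb, came after Srp14 (122) and ahead of Ssr4 (76.7), Ssr2 (72.1), Srp19 (63.3) and Spcs1 (62.5). Lowest in the mean were the ALG enzymes Alg6, at 1.39 CPM per kb, and Alg2, at 2.28, followed by Uggt1 at 3.66, while Alg3 (20.8) and Alg5 (17.8) lay in the middle of the range.

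No member passed edgeR's quasi-likelihood test at an adjusted p below 0.05 in AAV-XBP1S against AAV-GFP, where 0.315% of all genes tested did. At an unadjusted p below 0.05 there were 5 members (Serp1, Dpagt1, Alg3, Alg8 and Uggt1) of 39, and 11.6% of all genes. DESeq2 called 0 of 39, against 2.99% of its genes, with 6 at an unadjusted p below 0.05 (10.7% of its genes). Yet the log2 fold change was above 0 for 29 of 39 members, as for 48.8% of all genes, with a median of 0.17 against -0.01 over all genes. Both AAV-XBP1S libraries lay above both AAV-GFP libraries for 12 members (19.1% of all genes) and below both for 2 (16.8% of all genes).

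No member passed in AAV-ATF6N against AAV-GFP either, where edgeR called 0.514% of all genes. At an unadjusted p below 0.05 there were 6 members (Uggt1, Ssr3, Spcs3, Sec61b, Serp1 and Alg6), and 13.5% of all genes. DESeq2 called 1 member, Uggt1, and 3.76% of its genes. The log2 fold change was above 0 for 17 of 39 members (48.7% of all genes), with a median of -0.06 against -0.02. Groups did not overlap for 12 members that were higher (27.9% of all genes) and 11 that were lower (26.7% of all genes), shares close to those of the background. Both comparisons share the AAV-GFP libraries.

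In the direct comparison, AAV-ATF6N against AAV-XBP1S, the AAV-GFP libraries do not enter the difference. Here 25 of 39 members were lower in both AAV-ATF6N libraries than in both AAV-XBP1S libraries, as were 26.8% of all genes, and 4 were higher, as were 30.1%. The median was -0.25, against -0.01 over all genes, and 10 members lay above 0 (49.5% of all genes). edgeR called 0 of 39 members and 0.226% of all genes, with 3 members at an unadjusted p below 0.05 (13.2% of all genes), and DESeq2 called Uggt1 alone, with 5.39% of its genes. The endothelial markers given above were lower in AAV-ATF6N in the same comparison, where DESeq2 called 4 of the 7 (Cdh5, Tie1, Emcn and Egfl7) and edgeR 0. Of the other markers DESeq2 called the fibroblast gene Dcn and the smooth muscle and pericyte genes Rgs5 and Kcnj8 lower. It called Upk3b, of the Schwann and epicardial list, higher, and edgeR called 0 of these. The part of such cells in the members' values was not tested.

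**Figure D1:**
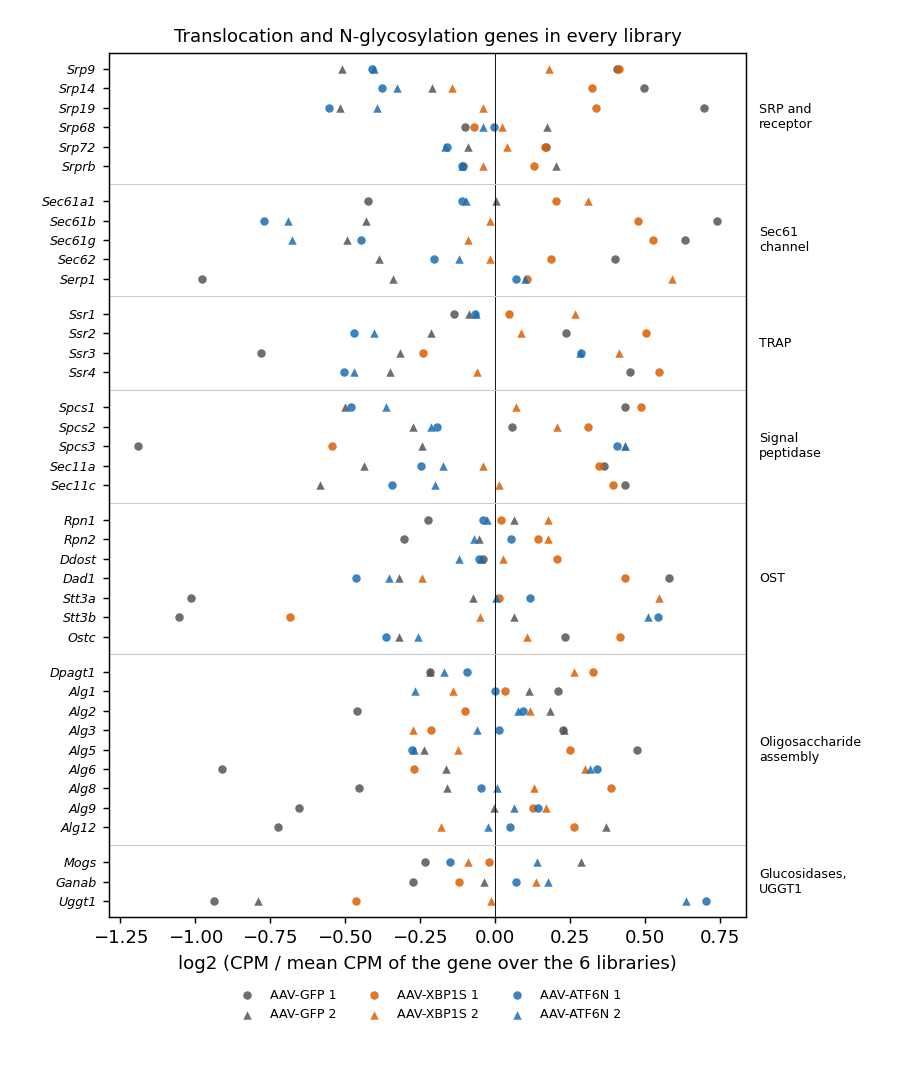
Level of each of the 39 genes in each library, as log2 of its CPM over its mean CPM in the 6 libraries, with genes grouped by role. Circles are replicate 1 and triangles replicate 2; grey is AAV-GFP, orange AAV-XBP1S, blue AAV-ATF6N. The blue symbols lie closer together than the grey ones for 35 of the 39 genes (not for Ddost, Dpagt1, Alg1 and Alg3), and for 25 genes both blue symbols lie left of both orange ones.

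Uggt1, the folding sensor of glycoproteins (mm10 chr1:36140028-36244302, minus strand), had the smallest p of the 39 genes in AAV-ATF6N. It was 31.4 and 34.7 CPM with AAV-GFP, 43.6 and 59.5 with AAV-XBP1S, and 97.9 and 93.4 with AAV-ATF6N. The groups did not overlap, and AAV-ATF6N was highest. The log2 fold change in AAV-ATF6N was 1.53 (SE 0.23), a 2.89-fold difference, with an edgeR adjusted p of 0.0529, just short of the threshold. In AAV-XBP1S it was 0.64 (SE 0.22, edgeR adjusted p 0.36), and between the factors 0.89 (SE 0.22, edgeR adjusted p 0.156). The authors' deposited table gives a log2 fold change of 1.54 and an adjusted p of 3.81e-05 for Uggt1 in AAV-ATF6N, where it is the only one of the 39 genes past 0.05, as 2.71% of its genes are. In the one for AAV-XBP1S 0 of the 39 genes are, and 1.31% of its genes. With DESeq2 the adjusted p was 2.18e-06, with a gene-length offset 0.0138 and without AAV-ATF6N replicate 1 0.51 (edgeR), the range over all alternatives being 2.18e-06 to 0.51.

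The other genes of this role differed less. Mogs, glucosidase I, had log2 fold changes of -0.10 (SE 0.25) with AAV-XBP1S and -0.05 (SE 0.25) with AAV-ATF6N. For Ganab, the catalytic subunit of glucosidase II, they were 0.17 (SE 0.21) and 0.28 (SE 0.21). Neither passed the test, with edgeR adjusted p-values from 0.492 to 0.930. Both Ganab libraries of AAV-ATF6N, 53.2 and 57.2 CPM, lay above the AAV-GFP ones at 41.8 and 49.3, and this order was lost once length was adjusted for.

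**Figure D2:**
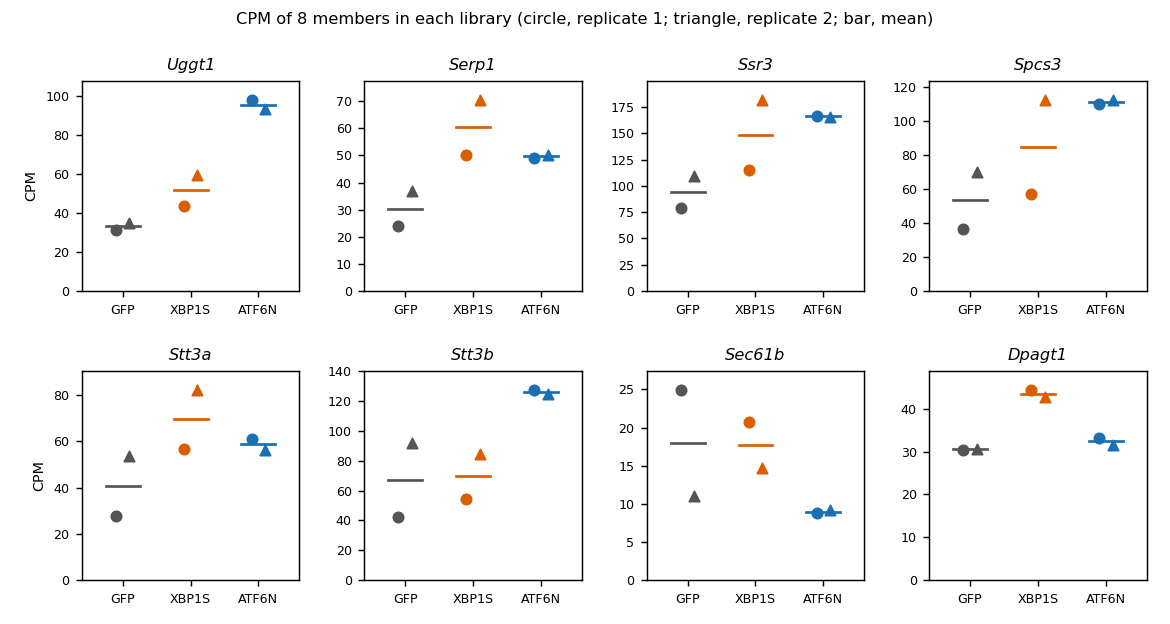
CPM of 8 of the genes in every library, with each axis starting at 0; circles are replicate 1, triangles replicate 2 and bars the mean of the group. Uggt1 and Stt3b are highest in AAV-ATF6N (97.9 and 93.4, 127.5 and 124.7 CPM), and Dpagt1 is highest in AAV-XBP1S (44.4 and 42.6 CPM).

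Of the channel genes, Serp1, which encodes a small protein that binds Sec61 under ER stress (mm10 chr3:58521971-58525884, minus strand), had the smallest p in AAV-XBP1S. It was 23.8 and 36.9 CPM with AAV-GFP, 50.3 and 70.4 with AAV-XBP1S, and 49.1 and 50.2 with AAV-ATF6N. All 4 libraries with a factor lay above both AAV-GFP libraries. The log2 fold change was 0.99 (SE 0.29, edgeR adjusted p 0.284) in AAV-XBP1S and 0.71 (SE 0.28, edgeR adjusted p 0.358) in AAV-ATF6N. Serp1 shares 64 exonic bases with Eif2a on the opposite strand, and the kits do not mark strand.

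The channel itself is a trimer. Its pore subunit Sec61a1 was 53.3 and 71.6 CPM with AAV-GFP, 82.4 and 88.6 with AAV-XBP1S, and 66.2 and 66.9 with AAV-ATF6N, so that AAV-XBP1S lay above the other groups. The log2 fold change was 0.45 (SE 0.22, edgeR adjusted p 0.482) in AAV-XBP1S. Sec61b, a tail-anchored subunit of 552 counted bases, was 25 and 11.1 CPM with AAV-GFP, 20.8 and 14.8 with AAV-XBP1S, and 8.75 and 9.25 with AAV-ATF6N. The AAV-ATF6N libraries were lowest, and the AAV-GFP libraries spanned those of AAV-XBP1S. Its log2 fold change in AAV-ATF6N, -1.0 (SE 0.40, edgeR adjusted p 0.358), was the lowest of the 39 and came to -0.24 (SE 0.15) with the gene-length offset described below. Near copies of Sec61b and Sec61g exist as pseudogenes and could take part of their reads. Sec61b lies head to head with Alg2, 293 bases apart on chromosome 4, yet Alg2 had 0.19 (SE 0.28) in AAV-ATF6N. Sec62, which assists transfer after translation, ranged from 40.0 to 68.9 CPM with no order by group against AAV-GFP.

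The 6 genes of the signal recognition particle and its receptor showed no difference in AAV-XBP1S that passed the test, with log2 fold changes from -0.08 to 0.28. Srp9, which pairs with Srp14 to pause translation, had the smallest p there, at 89.7 and 47.5 CPM with AAV-GFP, 90 and 76.5 with AAV-XBP1S, and 50.8 and 51.1 with AAV-ATF6N. The AAV-GFP libraries spanned all but 1 of the others. In AAV-ATF6N all 6 log2 fold changes were below 0, from -0.69 to -0.06, but that of Srp14 was 0.03 with the gene-length offset and those of Srp9 and Srp19 were 0.10 and 0.05 without AAV-GFP replicate 1. Srp14 had the smallest p, with 157.9 and 96.5 CPM in AAV-GFP against 86 and 89.2 in AAV-ATF6N and 140.0 and 101.1 in AAV-XBP1S, and a log2 fold change of -0.54 (SE 0.29, edgeR adjusted p 0.409). With the offset its SE was 0.12. Srp68, an RNA-binding subunit, had -0.07 (SE 0.19) and -0.06 (SE 0.19) in the comparisons with AAV-GFP and 0.00 (SE 0.19) between the factors.

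The translocon-associated protein complex, which sits beside the channel and helps some substrates in, lay above AAV-GFP in the mean for all 4 genes in AAV-XBP1S, except that Ssr4 came to -0.15 without AAV-GFP replicate 2 and to -0.12 without AAV-XBP1S replicate 1. Ssr3 had the smallest p in both comparisons. It was 79.3 and 109.4 CPM with AAV-GFP, 115.4 and 181.5 with AAV-XBP1S, and 166.4 and 165.8 with AAV-ATF6N. Both factor groups lay above AAV-GFP without overlap. The log2 fold changes were 0.65 (SE 0.28, edgeR adjusted p 0.439) and 0.82 (SE 0.28, edgeR adjusted p 0.324). Ssr2 and Ssr4 went the other way in AAV-ATF6N, at -0.47 (SE 0.24) and -0.59 (SE 0.33), and near 0 with the offset (-0.07 and -0.02). Ssr2 had the second smallest p between the factors, -0.75 (SE 0.25, edgeR adjusted p 0.255), and -0.54 (SE 0.11, edgeR adjusted p 0.0588) with the offset. Ssr4 lies on the X chromosome, and the groups differ in sex-linked transcripts. Ssr1 ranged only from 35.5 to 46.9 CPM over the 6 libraries.

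In signal peptidase, the catalytic paralogues Sec11a and Sec11c kept their proportion. Sec11a was 71.1 and 40.8 CPM with AAV-GFP, 70.3 and 53.7 with AAV-XBP1S, and 46.5 and 49 with AAV-ATF6N, and Sec11c was 34.7 and 17.1, 33.8 and 25.9, and 20.3 and 22.4. The ratio of Sec11c to Sec11a counts stayed between 0.421 and 0.488 in all 6 libraries. Of the accessory subunits, Spcs3, which every active form needs, was 36.4 and 70.3 CPM with AAV-GFP, 57 and 112.4 with AAV-XBP1S, and 110.3 and 112.4 with AAV-ATF6N. The AAV-ATF6N libraries lay above both AAV-GFP ones, and AAV-XBP1S overlapped them. The log2 fold changes were 0.67 (SE 0.41, edgeR adjusted p 0.582) and 1.06 (SE 0.41, edgeR adjusted p 0.356). Spcs2 had the smallest p of the 5 in AAV-XBP1S, at 85 and 67.6 CPM with AAV-GFP, 101.2 and 94.2 with AAV-XBP1S, and 71.3 and 70.4 with AAV-ATF6N, a log2 fold change of 0.36 (SE 0.20, edgeR adjusted p 0.551). Spcs1 had 0.25 (SE 0.33) and -0.46 (SE 0.33).

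Oligosaccharyltransferase comes in forms built on either catalytic subunit: STT3A, which works at the channel, and STT3B, which works after it. Stt3a was 27.9 and 53.5 CPM with AAV-GFP, 56.9 and 82.4 with AAV-XBP1S, and 61.2 and 56.5 with AAV-ATF6N, above AAV-GFP in all 4 libraries with a factor. Stt3b was 42.1 and 91.5 CPM with AAV-GFP, 54.5 and 84.5 with AAV-XBP1S, and 127.5 and 124.7 with AAV-ATF6N, so only AAV-ATF6N lay clear of the rest. Relative to AAV-GFP, the log2 fold changes of Stt3a were 0.77 (SE 0.35, edgeR adjusted p 0.457) for XBP1S and 0.53 (SE 0.35, edgeR adjusted p 0.453) for ATF6N, and those of Stt3b 0.06 (SE 0.39, edgeR adjusted p 0.961) and 0.92 (SE 0.39, edgeR adjusted p 0.376). Within a library, where depth cancels, the ratio of Stt3b to Stt3a counts was 1.51 and 1.71 with AAV-GFP, 0.959 and 1.03 with AAV-XBP1S, and 2.09 and 2.21 with AAV-ATF6N. The order of the groups held when length was adjusted for, with 1.8 and 1.67, 1.05 and 0.955, and 1.88 and 2.05. The difference in ratio between groups was not tested.

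**Figure D3:**
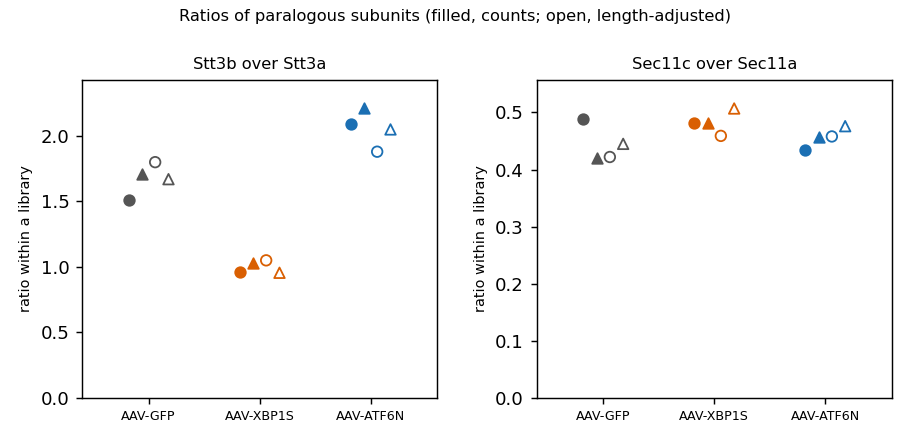
Ratio of paralogous subunits within each library, from counts (filled) and from length-adjusted values (open); circles are replicate 1 and triangles replicate 2. Stt3b over Stt3a separates the groups, near 1 in AAV-XBP1S and above 2 by counts in AAV-ATF6N, while Sec11c over Sec11a stays between 0.421 and 0.488 by counts.

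The structural subunits of the enzyme were steadier. Rpn1, Rpn2 and Ddost had log2 fold changes of 0.17 (SE 0.20), 0.33 (SE 0.19) and 0.16 (SE 0.18) in AAV-XBP1S, and of 0.04 (SE 0.20), 0.17 (SE 0.19) and -0.04 (SE 0.18) in AAV-ATF6N, with no edgeR adjusted p below 0.556. Dad1, a small subunit, was 218.9 and 117.3 CPM with AAV-GFP, 197.4 and 123.6 with AAV-XBP1S, and 106.2 and 114.4 with AAV-ATF6N. The counted length of 3735 bases sums all exons of Dad1, whereas the shortest coding transcript in GENCODE has 878 bases. Its library pattern resembles that of short genes such as Srp14, and the gene-length offset treats it as long. Ostc, which ties the STT3A form to the channel, had 0.29 (SE 0.25) and -0.29 (SE 0.25).

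Of the 9 genes that assemble the lipid-linked glycan, Dpagt1, which adds the first sugar and is the target of tunicamycin, had the smallest p in AAV-XBP1S. It was 30.5 and 30.5 CPM with AAV-GFP, 44.4 and 42.6 with AAV-XBP1S, and 33.2 and 31.5 with AAV-ATF6N. The groups were tight, and AAV-XBP1S lay above both others. The log2 fold change was 0.51 (SE 0.18, edgeR adjusted p 0.377), and 0.61 (SE 0.14, edgeR adjusted p 0.0901) with the gene-length offset, the smallest of the 39 there. Alg8, a glucosyltransferase late in assembly, had 0.56 (SE 0.23) in AAV-XBP1S and Alg3, a mannosyltransferase, -0.47 (SE 0.19). Alg6, the first of the glucosyltransferases, had the smallest p in AAV-ATF6N, with 3.23 and 5.42 CPM with AAV-GFP, 5.03 and 7.48 with AAV-XBP1S, and 7.69 and 7.56 with AAV-ATF6N. AAV-ATF6N was highest, at a log2 fold change of 0.82 (SE 0.34, edgeR adjusted p 0.371). Alg1, Alg2, Alg5, Alg9 and Alg12 lay between -0.44 and 0.44 in both comparisons.

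Gene length bears on these values. In AAV-ATF6N against AAV-GFP, all tested genes of up to 1000 bases had a median log2 fold change of -0.63. The 6 members of that length had -0.64, so the short subunits were no lower in that comparison than other short genes. Against AAV-XBP1S they were lower, with a median of -0.70 against -0.28 for all genes of that length, and 0 of the 6 lay above it. Across the 39 members, log2 fold change and log2 length had a Pearson r of 0.70 (Spearman 0.67) in AAV-ATF6N and 0.30 (Spearman 0.20) in AAV-XBP1S, a description over genes that share the same libraries. Over all 14587 genes they were 0.23 (Spearman 0.40) and 0.11 (Spearman 0.21). Between the factors the members had 0.70 (Spearman 0.68), and 0.39 (Spearman 0.29) with the offset described next, against 0.15 (Spearman 0.26) and -0.02 over all genes. In AAV-XBP1S the members of up to 1000 bases had a median of 0.03, against -0.33 for all genes of that length, and all 6 lay above that median. A fit with an offset for each library's trend with length was therefore set beside the first. In it AAV-XBP1S had a median of 0.35 over the members and 0.01 over all genes, with 31 of 39 above 0 (51.1% of all genes). Length-adjusted levels did not overlap for 24 higher members (24.4% of all genes) and 1 lower (19.9% of all genes), and 16 had an unadjusted p below 0.05 (18.5% of all genes). No member passed (1.86% of all genes did), the smallest edgeR adjusted p being 0.0901 for Dpagt1.

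The same offset gave AAV-ATF6N a median of 0.04, with 21 of 39 above 0 (49.2% of all genes), 14 higher without overlap (28.2% of all genes) and 6 lower (25.9% of all genes). Uggt1 rose in this fit (log2 fold change 1.18, SE 0.13, edgeR adjusted p 0.0138, where 1.47% of all genes passed), the only one of the 39 to pass. Between the factors the median was -0.23, and 26 members were lower in both AAV-ATF6N libraries (29.1% of all genes) against 4 higher (31% of all genes). The 6 members of up to 1000 bases had a median of -0.42 there, against 0.04 for all genes of that length. Uggt1, higher in AAV-ATF6N, passed (0.70, SE 0.13, edgeR adjusted p 0.042, with 4.15% of all genes). AAV-GFP replicate 1 carries much of the length trend. Without it, both AAV-XBP1S libraries lay above AAV-GFP replicate 2 for 27 members (34.6% of all genes) and below it for 8 (32.3%), and both AAV-ATF6N libraries above it for 18 (41.2%) and below for 17 (41.1%).

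**Figure D4:**
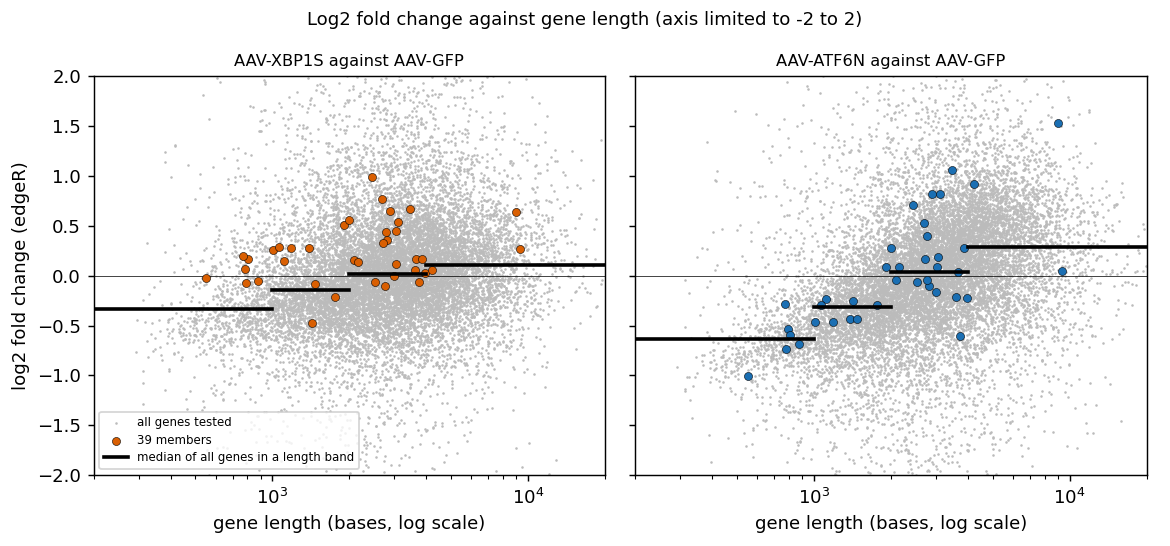
Log2 fold change against AAV-GFP by counted gene length (log axis) for all genes tested (grey) and the 39 members (colour), with the median of all genes in 4 length bands (black). In AAV-ATF6N the short members follow the band median of -0.63, and in AAV-XBP1S all 6 members of up to 1000 bases lie above the band median of -0.33.

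**Figure D5:**
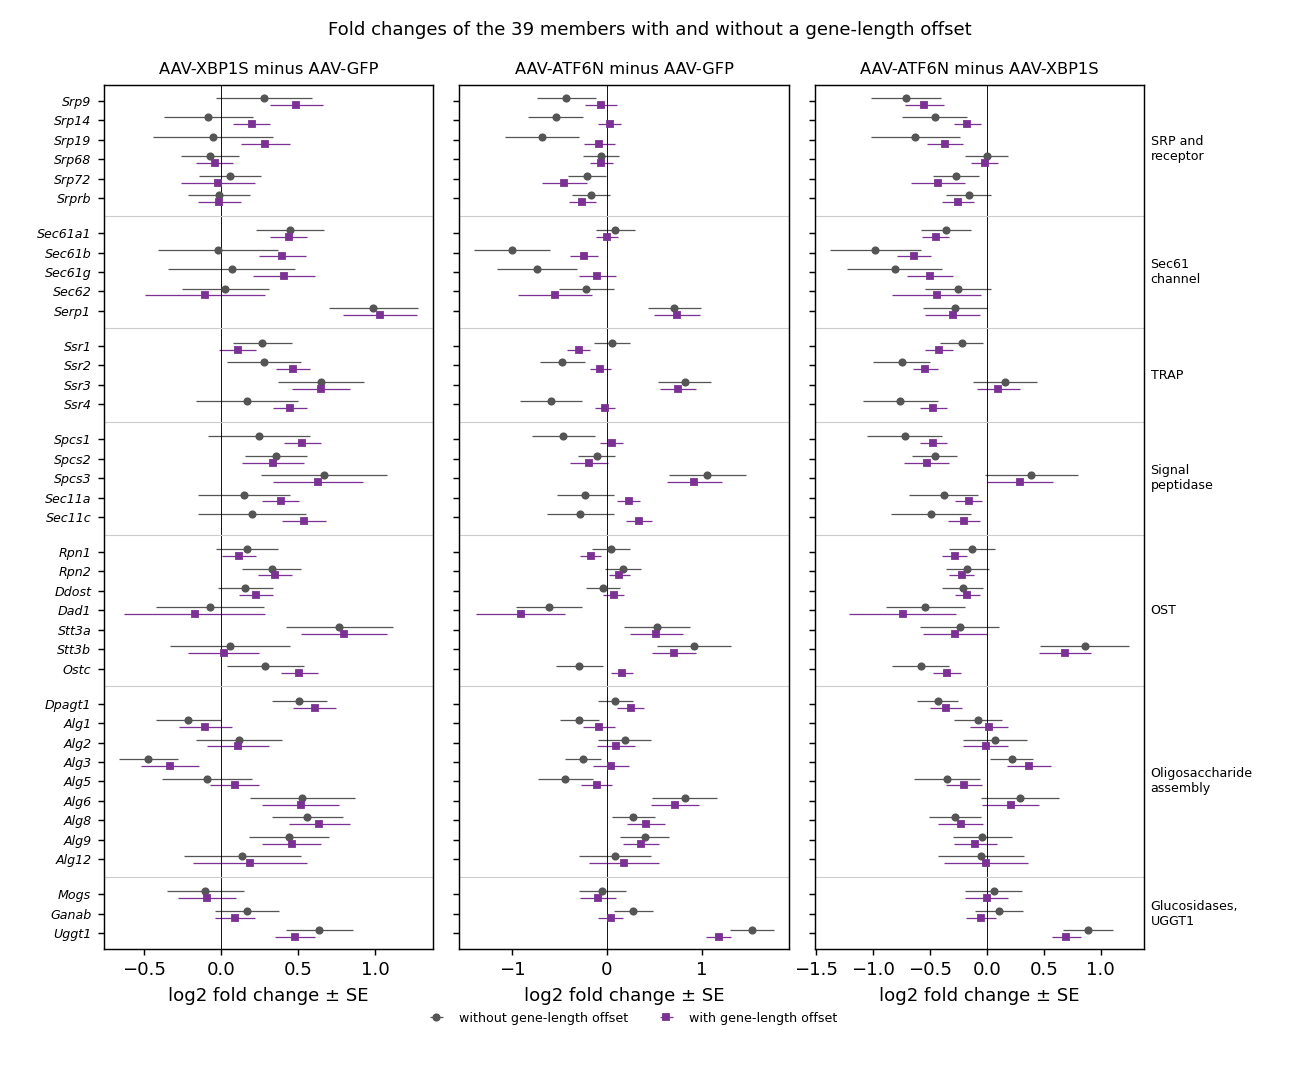
Log2 fold change ± SE of each of the 39 genes in the 3 comparisons, without (circles) and with (squares) the gene-length offset; 2 libraries a group. The offset raises the short subunits in both comparisons with AAV-GFP, and Uggt1 stays the highest in AAV-ATF6N, at 1.53 and 1.18.

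Neighbouring steps of the pathway were read from 7 further lists, of which 70 of 72 genes were matched and tested. Of those 70 genes, 1 passed edgeR's test in a comparison with AAV-GFP, as did 0.315% of all genes in AAV-XBP1S and 0.514% in AAV-ATF6N. Hspa5, the ER chaperone BiP that also seals and drives the channel, was 1078 and 1227 CPM with AAV-GFP, 1017 and 1204 with AAV-XBP1S, and 2941 and 3031 with AAV-ATF6N. It rose with AAV-ATF6N, by a log2 fold change of 1.37 (SE 0.19, edgeR adjusted p 0.0462), and stood at -0.05 (SE 0.19) in AAV-XBP1S. The call was lost when AAV-XBP1S replicate 1 or 2 (edgeR adjusted p 0.119 and 0.122) or AAV-ATF6N replicate 1 or 2 (0.466 and 0.53) was left out, and with only the 4 libraries compared (0.142). The log2 fold change stayed between 1.28 and 1.48, and the adjusted p-values ran from 1.46e-06 with DESeq2 to 0.53. The lectin chaperone cycle, which acts on the glycans that UGGT1 marks, had all 8 genes above 0 in AAV-ATF6N (48.7% of all genes). With the gene-length offset 6 of 8 were above 0 (49.2% of all genes). The cycle's median in AAV-ATF6N was 0.29, against -0.02 over all genes. In AAV-XBP1S 4 of its 8 genes were above 0 (48.8% of all genes). Its gene of smallest p, Pdia3, was 180.6 and 185.1 CPM with AAV-GFP, 234.3 and 234.9 with AAV-XBP1S, and 400.1 and 392.4 with AAV-ATF6N. The 3 groups were tight and separate, and AAV-ATF6N lay 1.12 above AAV-GFP on the log2 scale (SE 0.18, edgeR adjusted p 0.0632). Calr, calreticulin, had 1.05 (SE 0.18, edgeR adjusted p 0.0908). With the gene-length offset both passed, as did 1.47% of all genes, at edgeR adjusted p-values of 0.00694 for Pdia3 and 0.00378 for Calr.

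No gene of the other 5 lists passed edgeR's test in any of the 3 comparisons. DESeq2 called Srd5a3, which makes dolichol, lower in AAV-ATF6N than in AAV-XBP1S (log2 fold change -1.14, DESeq2 adjusted p 0.00241, edgeR adjusted p 0.0985). The 19 genes of dolichol and sugar donor supply had medians of 0.04 in AAV-XBP1S and -0.09 in AAV-ATF6N (0.04 and 0.01 with the gene-length offset), and Gmppb, which makes GDP-mannose, had the smallest p, 0.72 (SE 0.22, edgeR adjusted p 0.307) in AAV-XBP1S. For 5 other oligosaccharyltransferase subunits the medians were -0.08 and -0.60, with Magt1, a partner of STT3B, at 0.55 (SE 0.22, edgeR adjusted p 0.366) in AAV-ATF6N. With the gene-length offset these medians were 0.25 and 0.08, and Magt1 came to 0.22 (SE 0.22) in AAV-ATF6N. The 9 genes of the ER membrane protein complex, an insertase, had -0.20 and -0.40, but -0.01 and 0.06 with the offset. Its gene of smallest p in AAV-ATF6N was Cox4nb (also named Emc8), at -0.59 (SE 0.20, edgeR adjusted p 0.319), and at -0.94 (SE 0.28) with the offset. In the 6 genes of tail-anchored protein insertion Bag6 had -0.45 (SE 0.18, edgeR adjusted p 0.416) in AAV-XBP1S, and of 9 Golgi glycan-processing genes B4galt1 had 0.78 (SE 0.22, edgeR adjusted p 0.254) in AAV-ATF6N.

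The promoters of the genes were searched for the sites known for these factors, since ATF6 binds the ER stress element and XBP1s also binds the UPRE core. Windows from 250 bases before to 50 after the start were taken from RefSeq (GRCm38.p6), where 30 of the 39 members matched with 31 windows. The ER stress element, CCAAT and CCACG with 9 bases between, read on both strands, was in 1 of the 31 windows, that of Alg12, and in 0.119% of 32851 windows of all genes. ERSE-II, ATTGG and CCACG with 1 base between, was in 0 of 31 and 0.0365% of all. The UPRE core TGACGTG was in 1, that of Mogs, and in 2.01% of all. The short element CCACG alone was in 18 windows (58.1%, against 32.8% of all) and CCAAT in 15 (48.4%, against 37.4% of all), both counted after the whole elements had been seen. The windows with a whole element are shown, and those of Uggt1 and Serp1, the genes of smallest p against AAV-GFP in each factor, chosen after their values were seen. Capitals mark the whole elements, and in Serp1 each CCACG and CCAAT.
Uggt1, chr1:36244253-36244552, minus strand: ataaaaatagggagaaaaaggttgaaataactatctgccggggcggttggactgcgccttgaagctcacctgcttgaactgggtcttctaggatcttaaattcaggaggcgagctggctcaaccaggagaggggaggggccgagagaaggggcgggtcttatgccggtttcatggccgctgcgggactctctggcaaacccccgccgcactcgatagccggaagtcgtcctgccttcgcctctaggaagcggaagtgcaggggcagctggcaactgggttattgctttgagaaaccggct
Serp1, chr3:58525835-58526134, minus strand: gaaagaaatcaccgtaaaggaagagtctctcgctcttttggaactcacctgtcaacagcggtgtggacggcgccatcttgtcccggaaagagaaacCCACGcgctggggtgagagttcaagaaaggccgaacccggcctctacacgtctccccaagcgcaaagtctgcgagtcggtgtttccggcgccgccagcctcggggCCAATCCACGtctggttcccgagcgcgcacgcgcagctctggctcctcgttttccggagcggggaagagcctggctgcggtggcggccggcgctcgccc
Alg12, chr15:88819269-88819568, minus strand: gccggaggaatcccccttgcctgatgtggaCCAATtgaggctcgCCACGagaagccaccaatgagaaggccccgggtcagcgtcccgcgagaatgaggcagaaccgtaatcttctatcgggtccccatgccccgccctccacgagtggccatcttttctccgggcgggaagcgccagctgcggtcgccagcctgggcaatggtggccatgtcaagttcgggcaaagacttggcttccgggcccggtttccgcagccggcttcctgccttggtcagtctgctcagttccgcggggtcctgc
Mogs, chr6:83115256-83115555, plus strand: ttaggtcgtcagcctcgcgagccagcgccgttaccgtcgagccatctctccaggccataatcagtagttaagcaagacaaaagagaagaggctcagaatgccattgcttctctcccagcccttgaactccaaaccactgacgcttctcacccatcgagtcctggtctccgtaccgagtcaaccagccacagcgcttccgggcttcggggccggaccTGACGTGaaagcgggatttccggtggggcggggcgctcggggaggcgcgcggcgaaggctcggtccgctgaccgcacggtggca
The Uggt1 window holds neither short element, and in that of Serp1 a CCAAT stands directly before a CCACG, without the spacing of the element. Alg12, whose element begins at -220 from the start, was 5.34 and 11.4 CPM with AAV-GFP, 10.6 and 7.77 with AAV-XBP1S, and 9.11 and 8.67 with AAV-ATF6N, with all groups overlapping. Mogs, whose core begins at -34 from the start, was 15.7 and 22.6, 18.2 and 17.4, and 16.7 and 20.4 CPM, again overlapping. A match of letters is a description of the window, and its absence says only that these letters are not in it.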

How the data were processed

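Polyadenylated RNA was taken from sorted cardiomyocytes with a PureLink kit, amplified with SMART-Seq chemistry and made into libraries with Nextera XT, per the labels, in 3 groups of 2 libraries. The authors deposited whole-number read counts per gene, for which the submitters' processing notes name STAR, featureCounts and mm10, with a summed exon length per gene. The sources used here give no tool versions, annotation or strand setting. For each comparison with AAV-GFP a further table was deposited by the authors. Per the file headers, its columns are a mean normalized signal, the log2 fold change, scores (a standard error and a test statistic) and p-values.

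Genes were kept by edgeR's filterByExpr (count minimum 10), 14587 of 23337. edgeR 4.0.16 (R 4.3.3) fitted quasi-likelihood models with TMM scaling and the group as the only term to all 6 libraries (3 residual and 3.73 prior degrees of freedom). Tests were two-sided, p-values were adjusted by Benjamini-Hochberg over every gene tested, and the threshold was 0.05. The gene-length offset subtracted a lowess trend (span 0.5) against log2 length, fitted in each library to log2 CPM minus the gene's mean over the libraries. Genes with a mean above 1 CPM entered the fit of this trend. Length-adjusted CPM use the same trend. Standard errors are the log2 fold change over the square root of F. DESeq2 1.42.0 and the fits named in the closing section were alternatives, and the scripts were tested on simulated data. Total counts give the depth, and errors of counting are small beside the spread between libraries. Near copies were found with BLAST 2.17.0 against GENCODE transcripts (at least 90% identity over at least 200 bases): 11 members had one, and 4 share exonic bases with another gene, so their counts are less certain. All 6 columns of counts were used.

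Members, role groups, pathway lists and the rule for named genes were chosen with earlier results of these data known. Values in every library are given for the member of smallest p in each role group against AAV-GFP and for the pairs Sec11a with Sec11c and Stt3a with Stt3b. In the pathway lists, genes past the threshold or the gene of smallest p are named. Calr, Sec61a1, Dad1 and the other members given in full were added after their values were seen.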

Additional observations from a re-analysis of the deposited data

Results flagged for a closer look

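The ratio of Stt3b to Stt3a counts differed between the groups, with means of 1.61 in AAV-GFP, 0.994 in AAV-XBP1S and 2.15 in AAV-ATF6N. Relative to AAV-GFP, both AAV-XBP1S libraries lay lower and both AAV-ATF6N libraries higher. With length adjusted for, AAV-ATF6N (1.88 and 2.05) lay closer to AAV-GFP (1.8 and 1.67), and AAV-XBP1S stayed at 1.05 and 0.955. The difference between the groups was not tested. The AAV-GFP controls are shared, and the groups also differ in sex-linked transcripts.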

How the results depend on the processing

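Directions and calls of the 39 genes were set against each alternative. Of 1599 alternative values of single members, 1477 kept direction and side of the threshold, 27 kept direction and came past it, and 95 changed sign. No member had passed, so none could be lost. The sign changes came in 47 of 117 gene comparisons, where the log2 fold change was at most 0.69 in size. In AAV-XBP1S against AAV-GFP the median of 0.17 was 0.35 with the gene-length offset and 0.12 to 0.32 when a library was left out, and 0 members were called when any library was left out. In AAV-ATF6N against AAV-GFP 0 members were called, but 1 (Uggt1) with DESeq2, without the filter on low counts and with the gene-length offset, and 0 to 15 when a library was left out. The 15 came without AAV-GFP replicate 2, which leaves 1 control, assumed to vary like the other groups, and called 3055 of all genes against 75. The median of -0.06 was 0.04 with the gene-length offset, 0.02 without AAV-GFP replicate 1 and 0.01 without AAV-GFP replicate 2, and ran from -0.10 to 0.02 over the libraries left out, so its sign is not settled. Between the factors 1 member (Uggt1) was called with DESeq2 and with the gene-length offset, against 0, and the median of -0.25 ran from -0.30 to -0.21 when a library was left out.

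The values that changed sign follow, in log2 fold change, with ranges where a library was left out. With AAV-XBP1S, the gene-length offset took Srp14 to 0.20, Srp19 to 0.29, Srp72 to -0.02, Sec61b to 0.40, Sec62 to -0.10 and Alg5 to 0.09. With AAV-XBP1S, the block and the offset took Srp14 to 0.21, Srp19 to 0.29, Sec61b to 0.40, Sec62 to -0.04 and Alg5 to 0.09. With AAV-XBP1S, the replicate block took Srp19 to 0.01 and Sec61b to 0.04. With AAV-XBP1S and a library left out, values ran for Srp14 from -0.36 to 0.32, Srp19 from -0.51 to 0.68, Sec61b from -0.46 to 0.68, Dad1 from -0.42 to 0.45, Stt3b from -0.40 to 0.76, Alg2 from -0.17 to 0.51 and Alg5 from -0.37 to 0.31. They ran for Alg12 from -0.31 to 0.81, Srp9 from -0.08 to 0.81, Srp68 from -0.20 to 0.11, Srp72 from -0.03 to 0.19, Srprb from -0.16 to 0.19, Sec61g from -0.35 to 0.74 and Sec62 from -0.28 to 0.47. They ran for Ssr4 from -0.15 to 0.62, Spcs1 from -0.11 to 0.79, Sec11a from -0.17 to 0.60, Sec11c from -0.19 to 0.80 and Mogs from -0.34 to 0.21. With AAV-ATF6N, the gene-length offset took Srp14 to 0.03, Ssr1 to -0.30, Spcs1 to 0.05, Sec11a to 0.23, Sec11c to 0.34, Rpn1 to -0.17, Ddost to 0.07, Ostc to 0.16 and Alg3 to 0.04. With AAV-ATF6N, the block and the offset took Srp14 to 0.03, Ssr1 to -0.30, Spcs1 to 0.05, Sec11a to 0.23, Sec11c to 0.34, Rpn1 to -0.17, Ddost to 0.07, Ostc to 0.16 and Alg3 to 0.06. With AAV-ATF6N and a library left out, values ran for Srp9 from -0.80 to 0.10, Srp19 from -1.16 to 0.05, Sec61a1 from -0.11 to 0.33, Sec62 from -0.55 to 0.22, Spcs1 from -0.84 to 0.08, Spcs2 from -0.25 to 0.07 and Sec11a from -0.56 to 0.23. They ran for Sec11c from -0.69 to 0.31, Rpn1 from -0.10 to 0.20, Ostc from -0.53 to 0.01, Alg2 from -0.10 to 0.56, Alg12 from -0.36 to 0.75, Srp68 from -0.19 to 0.09 and Srprb from -0.31 to 0.01. They ran for Mogs from -0.28 to 0.25. Between the factors, the gene-length offset took Alg1 to 0.02, Alg2 to -0.01 and Ganab to -0.05. Between the factors, the block and the offset took Alg1 to 0.02, Alg2 to -0.01, Mogs to -0.01 and Ganab to -0.05. Between the factors and a library left out, values ran for Ssr3 from -0.17 to 0.52, Spcs3 from -0.06 to 0.96, Alg2 from -0.08 to 0.18, Alg6 from -0.01 to 0.60, Alg12 from -0.25 to 0.15, Ganab from -0.06 to 0.24 and Stt3a from -0.53 to 0.05. They ran for Alg1 from -0.22 to 0.05 and Mogs from -0.10 to 0.20.

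The number of all genes called varied far more: against AAV-GFP, 46 and 75 for AAV-XBP1S and AAV-ATF6N, 477 and 573 with DESeq2, 233 and 348 without the filter, 271 and 215 with the offset, and 13 and 8 with only the 4 libraries compared. It was 2 to 322 and 6 to 3055 when a library was left out. Between the factors it was 33, and 803, 458, 605 and 663 under the same settings, and 1 to 717 when a library was left out.

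The labels number the replicates 1 and 2 in each group. The deviations of same-numbered libraries correlated at 0.80 between AAV-XBP1S and AAV-GFP. They correlated at -0.20 between AAV-ATF6N and AAV-GFP, and at -0.25 between AAV-ATF6N and AAV-XBP1S. The AAV-ATF6N libraries differed little from each other, with a spread of log2 ratios of 0.10. Their correlations therefore cannot decide whether the replicate numbers pair the samples. With the replicate number as a block, 0, 1 (Uggt1) and 0 members were called in the 3 comparisons, with 165, 237 and 356 of all genes. With the block and the gene-length offset, 1 (Serp1), 1 (Uggt1) and 1 (Uggt1) were called, with 294, 271 and 693 of all genes, and the medians were 0.36 in AAV-XBP1S and 0.04 in AAV-ATF6N. With the AAV-ATF6N numbers crossed in the block, an alternative chosen after seeing the data, 2 members were called in AAV-ATF6N against AAV-GFP and 1 between the factors, with 524 and 633 of all genes.

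The spread between AAV-GFP libraries limits the comparisons, and 2 against 2 libraries give no permutation p below 0.333. Where gene lengths sum exons of several transcripts, as for Dad1, the offset uses a length the RNA need not have.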
